A study of Mus musculus with 12 samples.

Results

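Dvl1, Ece2, Rps6kb2 and Zfp26 are the 4 genes the study used as examples of predicted A2BP1 targets in the mouse nucleus accumbens (NAc), and their members here are all transcripts that the deposited gene models give under these names. There are 36 such transcripts among 87740 in the file. Each gene fills exactly 1 locus that holds no other gene name. The models were deposited with RNA-seq of NAc from C57BL/6 mice (male C57BL/6J in the study's methods) of 8 to 10 weeks, with 3 samples in each of 4 groups and 3 to 5 animals pooled per sample: repeated cocaine (20 mg/kg by intraperitoneal injection for 7 days), its saline control (saline for 7 days), acute cocaine (6 days of saline, then 1 injection at 20 mg/kg) and its saline control (7 days of saline), each collected 24 h after the last injection. The file analysed holds exons and identifiers but no expression value of any sample. The depth per sample is therefore unknown here, no cocaine group was compared with its saline control, no test was run and the NAc could not be checked against its markers. What follows describes the transcripts as the models give them. The models come from a reference annotation and carry no column for a sample or a group, so nothing below is a difference by treatment. The entries of the file do not state which of the libraries it was used with, although its name appears to refer to the repeated cocaine experiment.

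A2BP1, also called RBFOX1 or FOX-1, is an RNA-binding protein of neurons that recognises GCAUG, most strongly with a U before it, and favours inclusion or skipping of exons according to where it binds: binding in the intron downstream of an exon generally favours inclusion, and binding upstream generally favours skipping. The letters searched below are those of the DNA, GCATG. Dvl1 (dishevelled 1) is a scaffold that carries the Wnt signal from Frizzled receptors into the cell. Ece2 (endothelin converting enzyme 2) is a membrane-bound zinc metalloprotease of the neprilysin family. Rps6kb2 encodes S6 kinase 2, which phosphorylates ribosomal protein S6 downstream of mTORC1. Zfp26 encodes a zinc finger protein.

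The sequences that the results turn on are shown first, read 5′ to 3′ on the transcribed strand of NCBIM37 (mm9), the build of the deposited models. In the first pair, the capitals mark a skipped exon and each GCATG around it, since these were the only skipped exons of the 4 genes with GCATG on both sides.
Ece2 exon of 87 bases, chr16:20630314-20630569, plus strand: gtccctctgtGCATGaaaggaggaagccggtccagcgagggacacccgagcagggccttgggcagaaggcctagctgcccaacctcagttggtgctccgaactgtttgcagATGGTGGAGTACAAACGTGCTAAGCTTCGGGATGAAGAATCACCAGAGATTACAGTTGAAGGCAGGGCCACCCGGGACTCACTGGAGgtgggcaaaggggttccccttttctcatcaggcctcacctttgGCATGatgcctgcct
Dvl1 exon of 39 bases, chr4:155231492-155231687, plus strand: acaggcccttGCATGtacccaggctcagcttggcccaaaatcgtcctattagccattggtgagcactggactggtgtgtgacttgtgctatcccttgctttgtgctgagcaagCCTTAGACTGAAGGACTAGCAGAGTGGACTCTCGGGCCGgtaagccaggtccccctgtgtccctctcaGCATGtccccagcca
The next stretch holds the 3 donor sites that compete at the end of 1 exon of Rps6kb2, with the first 2 intron bases of each in capitals.
Rps6kb2 donors, chr19:4158791-4158859, minus strand: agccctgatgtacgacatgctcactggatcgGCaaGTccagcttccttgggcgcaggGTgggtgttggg
The last stretch is the start of the upstream Ece2 transcripts, where the ATG inside the capitals is the start codon.
Ece2 upstream first exon, chr16:20611684-20611712, plus strand: gcgctgccctgaGCATGgcctctccccgg

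Dvl1 lay on chromosome 4 (plus strand, 155221511 to 155233412, locus XLOC_021883) with 8 transcripts and 5 TSS groups, the file's sets of transcripts with a common transcriptional start site. Ece2 lay on chromosome 16 (plus strand, 20611666 to 20646558, XLOC_011511) with 10 transcripts and 4 TSS groups. Rps6kb2 lay on chromosome 19 (minus strand, 4156706 to 4163354, XLOC_015046) with 12 transcripts and 3 TSS groups. Zfp26 lay on chromosome 9 (minus strand, 20237416 to 20264606, XLOC_032118) with 6 transcripts and 4 TSS groups. Together the genes had 16 TSS groups, 125 distinct exons and 81 distinct introns. The genes thus differed more in their number of transcripts than in their number of start sites.

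All 4 genes carried more transcripts than the median of 2 at the 22206 loci with a protein identifier. The share of those loci with at least as many transcripts was 3.16% for Rps6kb2, 5.73% for Ece2, 10.3% for Dvl1 and 18.3% for Zfp26. A protein identifier, which the file gives to transcripts with a coding sequence, was present on 19 of the 36 transcripts. It was carried by 2 of 8 transcripts of Dvl1, 8 of 10 of Ece2, 6 of 12 of Rps6kb2 and 3 of 6 of Zfp26. By their types in GENCODE M1, which is on mm9 too, 16 transcripts were protein coding, 13 were retained-intron transcripts and 4 were processed transcripts. The other 3, all of Rps6kb2, were of the nonsense-mediated decay class. It is named for the pathway that degrades mRNAs whose stop codon lies well before the last exon junction. The class is an annotation, and decay was not measured here. The exons of 35 of the 36 transcripts were identical in the file and in GENCODE M1, the exception being Zfp26-201. Dvl1 and Ece2 were at opposite ends, with most transcripts of Dvl1 lacking a coding sequence and most of Ece2 having one.

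**Figure D1:**
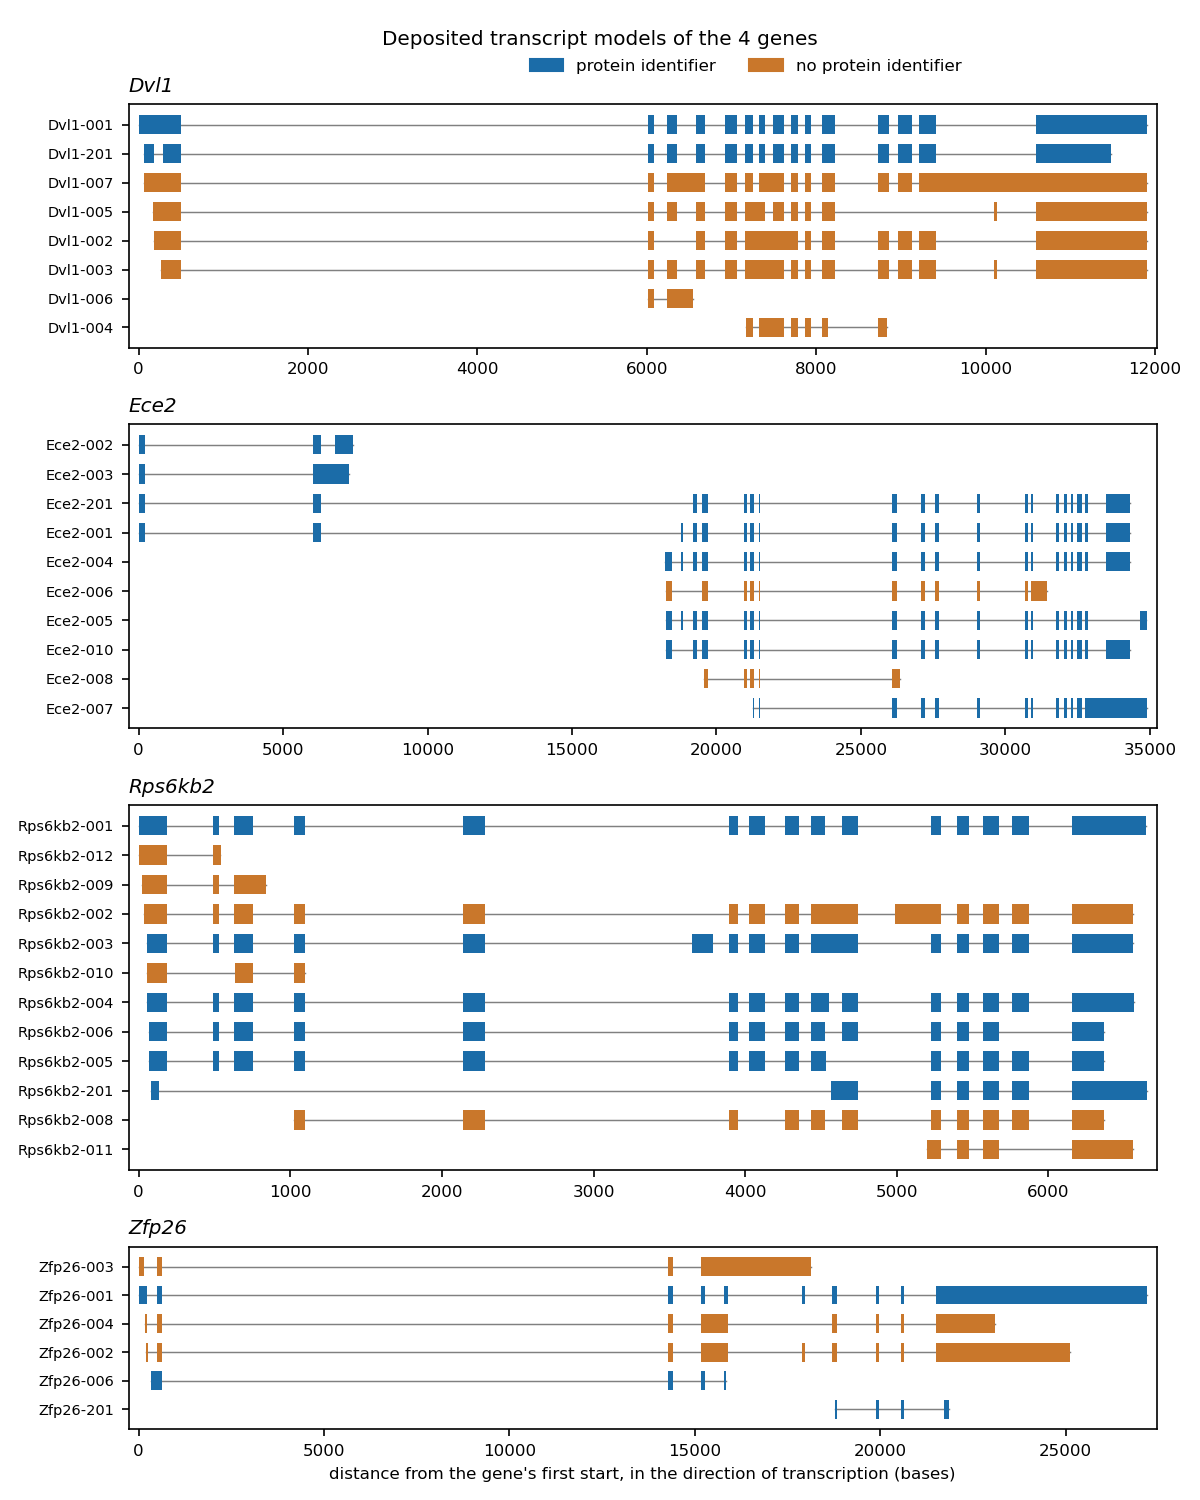
Exons (boxes) and introns (lines) of the 36 transcripts, drawn to scale along the distance in bases from each gene's first start, in blue for transcripts with a protein identifier and in orange for those without. Of the 10 Ece2 transcripts, 4 begin at each of 2 main places 18235 bases apart and the others begin further downstream, while 10 of 12 Rps6kb2 transcripts begin within 80 bases of each other.

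Ece2 had its starts furthest from each other among transcripts that make long proteins. Of its transcripts, 4 began within 17 bases of the first start (TSS16268) and 4 began 18235 to 18258 bases downstream (TSS16269), and each set shared a single first-exon donor. The other 2 began at 19552 and 21277 bases, both inside the body of the gene. The choice of start changed the protein: upstream first exons held 196 coding bases and were followed, in Ece2-001, Ece2-201 and Ece2-002, by an exon of 284 bases that is wholly coding, whereas downstream first exons held 39 coding bases. Ece2-001, from the upstream start, had 910 codons, against 763 in Ece2-004 from the downstream start, a difference of 147 codons with the 87-base exon present in both.

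The 87-base exon, at 20630425 to 20630511, was the only skipped exon of Ece2 that kept the reading frame. It was present in 3 transcripts (Ece2-001, Ece2-004 and Ece2-005) and skipped in 3 (Ece2-201, Ece2-010 and Ece2-006), and it was used from both main starts. Skipping it removed 29 codons: among transcripts of the upstream start, Ece2-201 had 881 codons where Ece2-001 had 910, and among those of the downstream start, Ece2-010 had 734 where Ece2-004 had 763. GCATG, in its 6-base form TGCATG, ended 97 bases before the exon's first base, and a GCATG without the T began 44 bases after its last base, as printed above. The next exon, of 130 bases at 20630854 to 20630983, was skipped in Ece2-006 alone, a retained-intron transcript with no protein identifier. In all, 2 of the 18 distinct internal exons of Ece2 were alternative, the lowest count of the 4 genes.

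Ece2 varied further at its 3′ end and in short transcripts. Ece2-005 spliced from the donor at 20644509 to a last exon at 20646334 to 20646549, with 12 coding bases, where Ece2-001, Ece2-201, Ece2-004 and Ece2-010 used a last exon from 20645133 with 174 coding bases. Ece2-007 read through that intron in a last exon of 2145 bases. Its first exon of 25 bases was wholly coding, so its coding sequence began at the first base of the model. That coding sequence of 1579 bases was not a multiple of 3. Ece2-002 and Ece2-003 began at the upstream start and ended within 7414 bases of it, with 255 and 197 codons and no exon in common with the downstream part of the gene. RefSeq, on a later build, lists Eef1akmt4, a readthrough gene Eef1akmt4-ece2, Camk2n2 and Ece2 in this order along the region, while the deposited file names all 10 transcripts Ece2. In the models, Ece2-002 and Ece2-003 ended at 20619080 and 20618942, before Camk2n2 (20619288 to 20621360). Ece2-001 and Ece2-201 had exons on both sides of Camk2n2, and the rest began after it. Which of the 10 belong to which RefSeq gene was not tested. The counts given here for Ece2 therefore hold for the name in the file and may cover more than 1 RefSeq gene. Camk2n2, an inhibitor of the kinase CaMKII, lay on the opposite strand wholly inside an Ece2 intron and shared no exonic base with it.

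Dvl1 had 6 of its 8 starts within 269 bases, in 3 TSS groups, and 5 of these transcripts shared one first-exon donor at 155222013. The exception, Dvl1-201, spliced a 98-base intron out of the 5′ untranslated region and then joined the same donor. Dvl1-001 and Dvl1-201, its only transcripts with a protein identifier, shared one identifier and 695 codons, so the file holds a single protein for Dvl1. They also differed at the 5′ end, by 59 bases, and at the 3′ end, at 155233412 in Dvl1-001 and at 155232987 in Dvl1-201. The remaining starts, of Dvl1-006 and Dvl1-004, lay 6008 and 7170 bases downstream.

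Retained introns were the main form of variation in Dvl1. Of its 20 distinct introns, 8, which overlap into 6 separate stretches, were retained in another transcript, and 6 of its 8 transcripts retained at least 1. Only 0.419% of loci with a protein identifier had as many retained introns. Dvl1-007 retained 6, of which 3 are overlapping alternatives of one stretch, so that it retained 4 separate stretches. Dvl1-002 retained 4, among them 3 neighbouring introns of 71, 85 and 78 bases that it joined with their exons into one exon of 615 bases. Dvl1-002 also skipped an exon of 122 bases (155227746 to 155227867), which is wholly coding in Dvl1-001 and is not a multiple of 3. Over the 4 genes, 13 of 36 transcripts retained an intron, against a background of 12.9% of transcripts at loci of 2 or more transcripts and 14.8% at the 3529 loci with 6 to 12 transcripts, the range of the 4 genes. The counts by gene were 6 of 8 in Dvl1, 2 of 10 in Ece2, 2 of 12 in Rps6kb2 and 3 of 6 in Zfp26, so Dvl1 made up 6 of the 13.

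Dvl1-003 and Dvl1-005 carried an exon of 39 bases (155231605 to 155231643) that no coding transcript of Dvl1 contained. Dvl1-001, Dvl1-201 and Dvl1-002 skipped it, and in Dvl1-007 it lay inside the retained sequence. It was flanked in the same way as the 87-base exon of Ece2, with TGCATG ending 99 bases before its first base and GCATG beginning 30 bases after its last. Dvl1-005 further lacked the 3 preceding exons, of 132, 168 and 207 bases, each of which is wholly coding in Dvl1-001 and a multiple of 3.

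Rps6kb2 concentrated its starts and varied its exons. Of its 12 transcripts, 10 began within 80 bases in 1 TSS group. Rps6kb2-008 began 1024 bases and Rps6kb2-011 began 5202 bases downstream of the first start, and neither had a protein identifier. Of its 20 distinct internal exons, 18 were alternative, a count that 0.802% of loci with a protein identifier reached, and 15 of them were skipped by some transcript.

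A single transcript accounted for 10 of the 15 skipped exons. Rps6kb2-201 joined a first exon that ended at 4163219 to position 4158790 across an intron of 4428 bases that begins with GA and ends with GG. Its ends were as follows, with those bases in capitals.
Rps6kb2-201, start of the intron, chr19:4163209-4163233, minus strand: tttgatttagacttgGAgaccgagg
Rps6kb2-201, end of the intron, chr19:4158776-4158800, minus strand: gggtgttgGGgagatcccttccagg
The 5 letters at the join occurred at both ends, so the same spliced sequence fits 6 positions of the junction, and none of them gave an intron from GT to AG. Of the 81 introns of the 4 genes, 77 began with GT and ended with AG, 3 began with GC and ended with AG, and this was the only other one, against 1.05% GC to AG introns and 1.57% introns of other kinds (apart from AT to AC) over 226618 introns at loci with a protein identifier. Without Rps6kb2-201, the alternative exons of Rps6kb2 numbered 13 instead of 18 and those of the 4 genes 36 instead of 41. The skipped exons of the 4 genes then numbered 13 instead of 23, and those of Rps6kb2 5 instead of 15. The 5 that remained had 41, 140, 101, 108 and 113 bases, and of these only the 108-base exon was a multiple of 3.

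The donor at the end of the exon that starts at 4158919 took 3 positions. The coding transcripts Rps6kb2-001 and Rps6kb2-006 (the second of which leaves out the 113-base exon), with the processed transcript Rps6kb2-008, used a donor that begins with GC after 91 exon bases. Rps6kb2-005 used a GT donor 4 bases further on and also left out the 108-base exon that follows. Rps6kb2-004 used a GT donor 26 bases further on. Neither 4 nor 26 is a multiple of 3, and GENCODE M1 places the last coding base 309 bases before the last exon junction in Rps6kb2-005 and 358 bases before it in Rps6kb2-004. Rps6kb2-003 and Rps6kb2-002 retained the intron at this place. Rps6kb2-003, the remaining transcript of the decay class, also held an exon of 140 bases (4159566 to 4159705) that 7 other transcripts skipped, and its coding sequence ended 1060 bases before the last junction. That exon is shown in capitals because it is the only whole exon that is private to an Rps6kb2 transcript with a protein identifier.
Rps6kb2 exon of 140 bases, chr19:4159546-4159725, minus strand: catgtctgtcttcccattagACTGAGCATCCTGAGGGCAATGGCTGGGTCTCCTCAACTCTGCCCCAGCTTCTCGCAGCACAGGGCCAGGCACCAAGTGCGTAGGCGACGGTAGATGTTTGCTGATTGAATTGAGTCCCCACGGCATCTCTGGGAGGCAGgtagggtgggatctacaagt
The coding sequences thus ran to 485 codons in Rps6kb2-001, 392 in Rps6kb2-006 and 208 in Rps6kb2-201, and to 312, 285 and 153 in the decay-class transcripts Rps6kb2-004, Rps6kb2-005 and Rps6kb2-003.

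**Figure D2:**
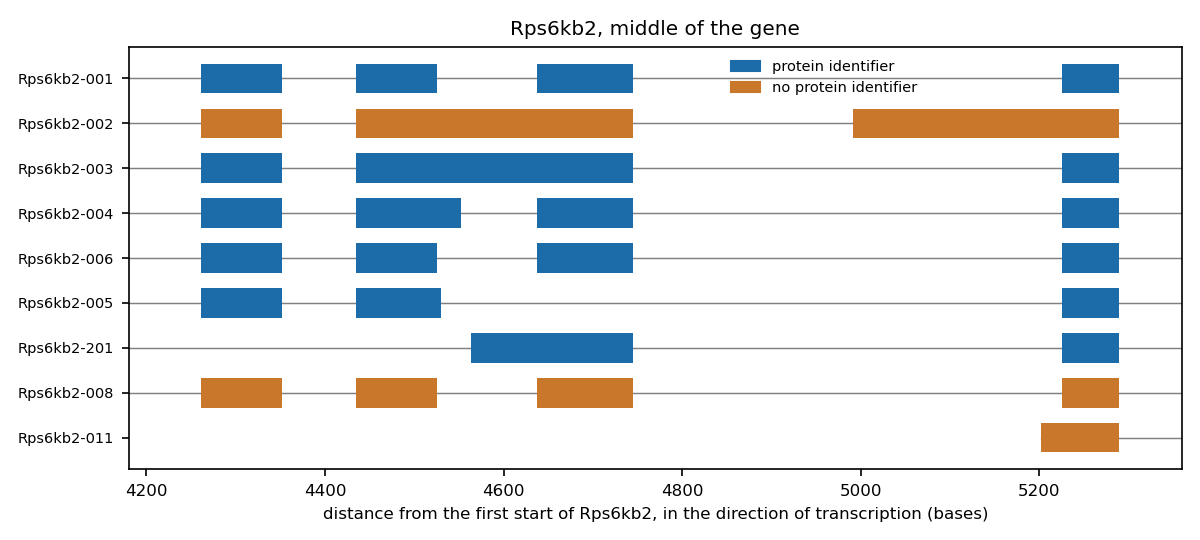
Exons (boxes) of the 9 Rps6kb2 transcripts that reach the middle of the gene, by distance in bases from the first start, in blue with and in orange without a protein identifier. The second box from the left ends at 3 different donors in Rps6kb2-001, Rps6kb2-005 and Rps6kb2-004, 4 and 26 bases apart from the first, and runs through the intron in Rps6kb2-002 and Rps6kb2-003.

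Zfp26 had most of its sequence in one exon. The last exon of Zfp26-001 held 5689 of its 6753 bases and 78.9% of its coding bases. Zfp26-002 and Zfp26-004 ended within that exon, at 3631 and 1599 bases. Of the 6 transcripts, 5 began within 335 bases, in 3 TSS groups, and spliced from 4 first-exon donors, and in those with a coding sequence (Zfp26-001 and Zfp26-006) the first exon held 0 coding bases. Zfp26-201 began 18788 bases downstream, and its models in the file and in GENCODE M1 differ. Zfp26-004 skipped an exon of 86 bases, which lies in the coding sequence of Zfp26-001 and is not a multiple of 3. It is printed with its intron edges because it is the only skipped exon of the gene.
Zfp26 exon of 86 bases, chr9:20246604-20246729, minus strand: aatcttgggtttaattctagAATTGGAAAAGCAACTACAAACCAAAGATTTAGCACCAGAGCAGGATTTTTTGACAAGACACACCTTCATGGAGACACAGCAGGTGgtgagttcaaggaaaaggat
An intron of 526 bases was retained in 3 transcripts (Zfp26-002, Zfp26-003 and Zfp26-004) and spliced in 2 (Zfp26-001 and Zfp26-006). Zfp26-001 coded for 959 codons. The model of Zfp26-006 held 56, and all 51 bases of its last exon were coding. Its coding sequence thus ran to the end of the model, so the 56 codons are not a full protein length. Within 100 kb of Zfp26 lay 6 other genes by name, of which 3 were zinc finger genes (Zfp266, Zfp426 and Zfp560).

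**Figure D3:**
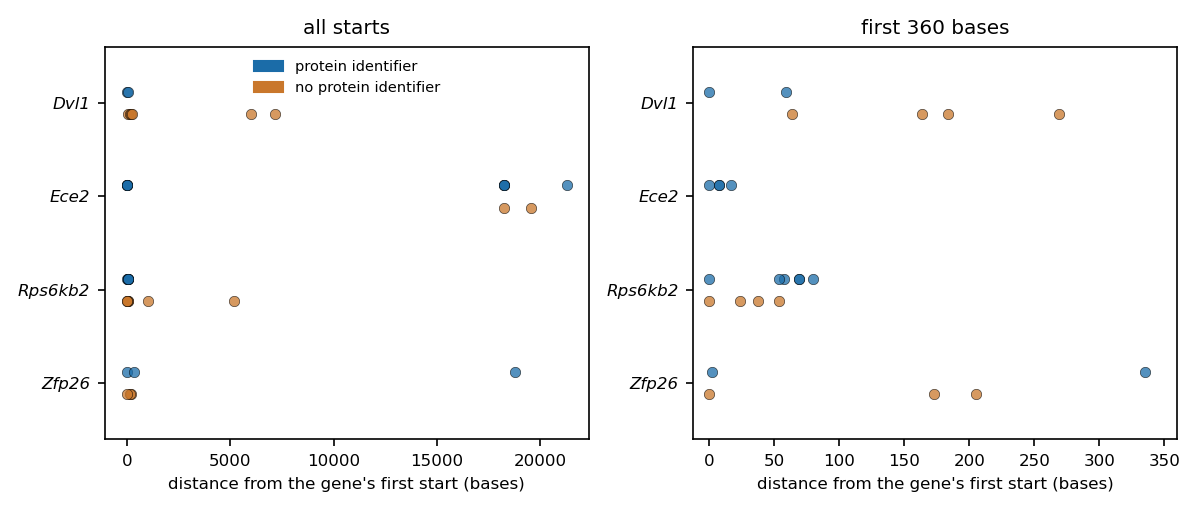
Starts of the 36 transcripts by distance in bases from each gene's first start, over the whole gene (left) and its first 360 bases (right), with blue points for transcripts with a protein identifier and orange points for those without. Ece2 has coding starts at 0 to 17 and again from 18235 bases, while the Rps6kb2 transcripts with a protein identifier all start within 80 bases.

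The starts were then compared by their spacing. Of the 12 pairs of neighbouring TSS groups in the 4 genes, 4 lay 500 bases or less apart, 2 in Dvl1 (164 and 105 bases) and 2 in Zfp26 (173 and 162 bases), against 27.9% of 25862 such pairs at all loci with a protein identifier. In Dvl1, TSS31725 and TSS31726 shared one first-exon donor, so their first exons differ only in how far the first exon reaches upstream. When 5′ ends within 100 bases were counted once, the 16 start sites became 14. When each distinct 5′ end was counted, they became 31.

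Alternative internal exons were those that another transcript skipped, bounded differently or joined to a retained intron. Of 68 distinct internal exons, 41 were alternative, against 28.1% of 149397 at loci of 2 or more transcripts and 36.2% at loci with 6 to 12 transcripts. By gene the counts were 17 of 21 in Dvl1, 2 of 18 in Ece2, 18 of 20 in Rps6kb2 and 4 of 9 in Zfp26. Ece2 was therefore below both backgrounds and Dvl1 and Rps6kb2 above them. The length was a multiple of 3 in 8 of the 23 skipped exons (4 in Dvl1, 1 in Ece2, 3 in Rps6kb2 and 0 in Zfp26), or in 6 of 13 without Rps6kb2-201, against 45.7% of 21357 skipped exons at loci of 2 or more transcripts.

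How far a read can tell these transcripts apart depends on the exonic bases and junctions that belong to 1 transcript of the gene alone (private bases and junctions). Of the 36 transcripts, 16 had no private base, against 29.5% of transcripts at loci of 2 or more transcripts and 32.8% at loci with 6 to 12. Of the 19 with a protein identifier, 10 had none, against 35.3%. The private bases of a transcript ranged from 0 to 2147 with a median of 7. Fewer than 100 private bases, the read length given for these libraries, were found in 25 of 36 transcripts, against 56.4% at loci with 6 to 12 transcripts. These were 7 of 8 in Dvl1, 5 of 10 in Ece2, 10 of 12 in Rps6kb2 and 3 of 6 in Zfp26.

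A private junction was present in 22 of the 36 transcripts, against 60.5% of transcripts at loci of 2 or more transcripts and 54.0% at loci with 6 to 12. Neither a private base nor a private junction was present in 3, all of Rps6kb2 (Rps6kb2-001, Rps6kb2-006 and Rps6kb2-011), against 10.8% of transcripts at loci of 2 or more transcripts and 12.7% at loci with 6 to 12. Rps6kb2-001, the longest coding model of S6 kinase 2, was thus separable from the other models of its gene only by which features a read or fragment combines, not by any single base or junction. In Dvl1, the 59 private bases of Dvl1-001 were the first 59 bases of its first exon. In Ece2, the coding transcripts Ece2-001, Ece2-201, Ece2-005 and Ece2-010 had 0 private bases and 1 private junction each. In Zfp26, by contrast, Zfp26-001 had 2088 private bases and Zfp26-003 had 2147.

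**Figure D4:**
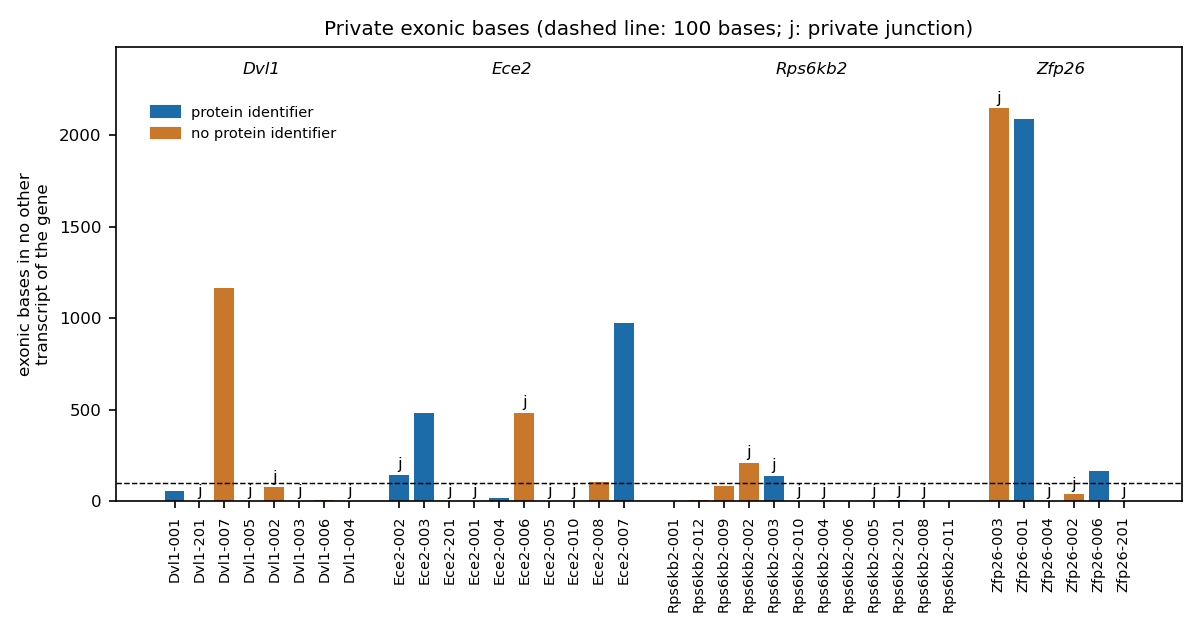
Exonic bases found in no other transcript of the gene (bars, linear axis from 0), for each of the 36 transcripts in order of their starts, in blue with and in orange without a protein identifier. A j marks a transcript with a private junction and the dashed line marks 100 bases, which 25 of the 36 bars do not reach.

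The transcripts that the study names for these genes, in the part of its tables read here and in its text, are Dvl1-002 (ENSMUST00000141539), Ece2-010, Rps6kb2-004, Rps6kb2-005, Rps6kb2-009 and Rps6kb2-201. Of these 6 transcripts, 0 had 100 private bases or more, with a range of 0 to 86. At loci with 6 to 12 transcripts, 56.4% of transcripts had fewer than 100. A private junction was present in 5 of the 6, against 54.0% of transcripts at those loci. The 78 private bases of Dvl1-002 were a retained intron (155229135 to 155229212). Ece2-010 was marked by the junction from the downstream first exon to the 130-base exon, across 733 bases that hold the 87-base exon. Rps6kb2-004 was marked by the donor 26 bases further on and Rps6kb2-005 by the junction that leaves out the 108-base exon. Rps6kb2-009, with 3 exons and no protein identifier, had 86 private bases at its 3′ end and no private junction. Rps6kb2-201 had 7 private bases and, as its private junction, the GA to GG intron. Those 7 bases, at its 3′ end, also lie in an exon of Ptprcap, a gene on the other strand that is described below. Of the 6, 4 had a protein identifier, and these were Ece2-010 and 3 of Rps6kb2. None was of Zfp26 in the rows read.

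Genes on the other strand shared exonic bases with 3 of the 4. Tas1r3, a taste receptor subunit, shared 36 bases at the 3′ end of Dvl1, and Ptprcap, a protein associated with the phosphatase CD45, shared 46 bases at the 3′ end of Rps6kb2. AC171206.1, a lincRNA, shared 1792 exonic bases with Zfp26. The protocol in the labels describes no step that marks the strand, so reads from shared bases cannot be told apart by gene. Allowing any overlapping transcript on either strand raised the count of transcripts with no private base to 17, against 16 within the gene.

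GCATG was searched on the transcribed strand of all exons and of the first and last 150 bases of each intron. It occurred 31 times in 33015 bases of the 4 genes, or 0.939 per kb, against 1.0 per kb over all 22206 loci with a protein identifier. On the other strand it occurred 29 times, or 0.878 per kb, against 0.981 per kb. The counts were 5 in Dvl1, 11 in Ece2, 6 in Rps6kb2 and 9 in Zfp26. All 4 genes held it, as did 87.8% of loci, and all 4 held TGCATG, as did 66.7%. CATGCA, the letters by which the study words the motif, is TGCATG read on the other strand and shares the 4 letters CATG with GCATG. It occurred 1 time in Dvl1, 4 times in Ece2, 0 times in Rps6kb2 and 1 time in Zfp26, and 64.0% of loci held it. By gene the density on the transcribed strand was 0.772 per kb in Dvl1, 1.06 in Ece2, 1.24 in Rps6kb2 and 0.792 in Zfp26, so Ece2 and Rps6kb2 lay above the background and Dvl1 and Zfp26 below it, with no test. Of the 31 occurrences, 9 lay in coding sequence, 14 in exons outside coding sequence and 8 in intron flanks. An occurrence was placed in an exon if any transcript held it in one, retained-intron transcripts included. The GCATG before and the GCATG after the 39-base exon of Dvl1 were each in an exon of 1 of 8 transcripts. Both were thus counted as exonic, although they are intronic in the transcripts that carry the 39-base exon. Dvl1 had 0 occurrences in intron flanks by this rule.

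In first exons, GCATG was found in Ece2 only, 1 time, against 34.1% of loci with at least 1. The match lay 30 bases from the first start, in the first exon shared by the 4 upstream transcripts, and its last 3 letters were the start codon of all 4. The first exon of the downstream start of Ece2, and those of Dvl1, Rps6kb2 and Zfp26, held no GCATG, and none of the 4 genes held TGCATG there, against 12.6% of loci that did. No match says only that these letters are not in these exons.

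Around the 23 skipped exons, GCATG lay within 150 bases upstream of 4 exons, within 150 bases downstream of 6 and on both sides of 2, against 13.4%, 16.3% and 2.31% of 21357 skipped exons at loci of 2 or more transcripts. The 2 with both were the 87-base exon of Ece2 and the 39-base exon of Dvl1, and both lengths are a multiple of 3. The 87-base exon is wholly coding. The 39-base exon has 0 coding bases and is in no coding transcript, so its length does not show that it keeps a reading frame. Upstream only, it lay before the 168-base exon of Dvl1, where the match is inside the preceding exon, and before the 91-base exon at 4159003 of Rps6kb2. Downstream only, it followed 4 exons of Rps6kb2, of which the 108-base and 181-base exons are alternative forms of one exon and share one TGCATG 64 bases after their common donor. The others were the 101-base exon, with GCATG beginning 20 bases after its last base, and the 113-base exon, where it began 46 bases after. The 86-base exon of Zfp26 had none within 150 bases. The GCATG after the 101-base exon is the same occurrence as the one before the 91-base exon at 4159003. Without Rps6kb2-201, 13 skipped exons remain, and neither this 91-base exon nor the 181-base exon is among them. The 91-base exon then leaves the upstream count and the 181-base exon leaves the downstream count. Since several of the 15 skipped exons of Rps6kb2 also overlap each other, the 23 exons are not independent.

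**Figure D5:**
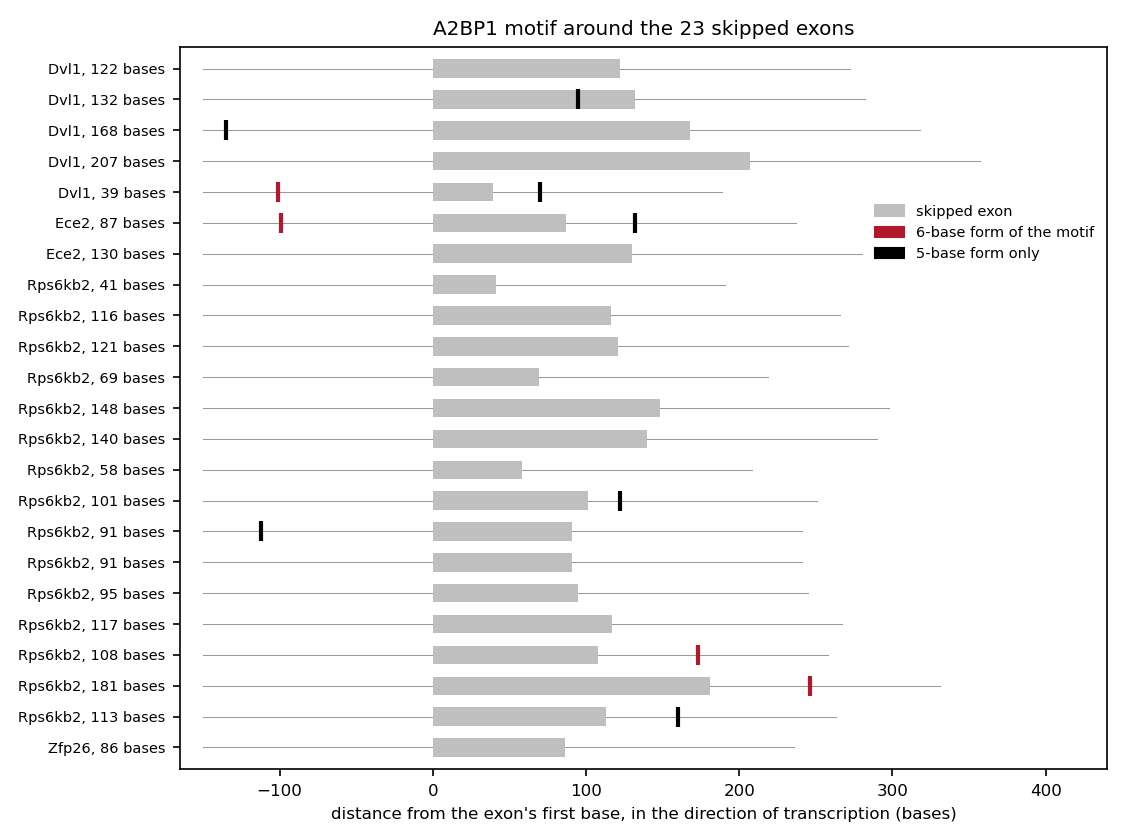
The 23 skipped exons (grey boxes) with 150 bases on each side, by distance in bases from the exon's first base, and the A2BP1 motif in its 6-base form (red) or in its 5-base form alone (black). The 39-base exon of Dvl1 and the 87-base exon of Ece2 have a red mark before and a black mark after the exon, and no other exon has marks on both sides.

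Relatives of 3 of the genes were set beside them, with no test. Dvl1 had 8 transcripts and 17 alternative internal exons, against 5 and 4 in Dvl2 and 4 and 7 in Dvl3. Ece2 had 10 transcripts and 2 alternative internal exons, against 5 and 4 in Ece1, and the other 5 members of its family (Ecel1, Mme, Mmel1, Kel and Phex) had 1 to 7 transcripts and 0 to 5 alternative internal exons. Rps6kb2 had 12 transcripts and 18 alternative internal exons, against 7 and 8 in Rps6kb1, the gene of S6 kinase 1, and 2 to 12 and 1 to 6 in Rps6ka1 to Rps6ka6, where Rps6ka6 also had 12 transcripts. It was also the shortest of its family, spanning 6649 bases, against 45935 in Rps6kb1 and 11541 to 175251 in Rps6ka1 to Rps6ka6.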

How the data were processed

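RNA-seq libraries were made by the authors from NAc pools (3 in each of 4 groups) and, per the labels, processed with CASAVA, TopHat, Cufflinks and Cuffdiff on mm9, with tool versions not given in the sources used here. From the deposited data, one file was used, a set of Ensembl gene models (NCBIM37.62, per the study's methods) with exon start and end positions in bases, locus, TSS group and protein identifiers. Other values, such as counts or FPKM, were not analysed here. It has 0 columns of per-sample values. No value was taken from the study's tables, only which transcripts they name.

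Members were all transcripts with the gene names Dvl1, Ece2, Rps6kb2 or Zfp26, all of which are described. Members, lists and alternatives were chosen with earlier results of these data known. Exons of the transcripts of a gene were compared in pairs: an internal exon was alternative where another transcript skipped it, used another donor or acceptor, or retained an adjoining intron. Backgrounds are all loci with a protein identifier. Types and coding sequences came from GENCODE M1 and sequences from NCBIM37; CDS lengths leave out the stop codon. RefSeq names (GRCm38.p6) served only for gene order. The functions were tested on simulated gene models (14 of 14 tests passed) with Python 3.11.15, and figures used matplotlib 3.10.9. With no value per sample, no test, error or replicate analysis could be made.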

Additional observations from a re-analysis of the deposited data

How the results depend on the processing

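The counts describe annotation, so they carry no sampling error, and they moved with what was counted. Keeping only transcripts with a protein identifier gave 19 transcripts instead of 36, 8 start sites instead of 16, 16 alternative exons instead of 41, 9 transcripts with no private base instead of 16 and 0 with neither private base nor junction instead of 3. Counting distinct 5′ ends gave 31 start sites. Requiring at least 100 private bases gave 25 transcripts without them and 8 with neither these nor a private junction. Of the 31 GCATG occurrences, TGCATG kept 11, CATGCA occurred 6 times, and the single GCATG in first exons became 0 with TGCATG, with CATGCA and on the antisense strand. The protein identifier, private-base and TGCATG settings are narrower definitions and the 5′ ends a wider one, while CATGCA and the antisense strand search other letters. Counting 5′ ends within 500 bases once (12 start sites) and leaving out Rps6kb2-201 (36 alternative exons) were chosen after seeing the data. The other alternatives stayed within 1.5 times of the counts given. No paired analysis was possible because the file holds no values per sample. The models do not say which transcripts were expressed in the NAc.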
